A study of Mus musculus with 36 samples.

Results

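Cell division runs on genes that are switched on in waves: one wave before and during S phase, when DNA is copied, and a later one before mitosis, when chromosomes are parted. The replication wave holds the MCM helicase that unwinds DNA, the clamp and loading factors that work with it, and the enzymes that supply nucleotides. The mitosis wave holds the cyclin-dependent kinase Cdk1 with its cyclins, the spindle kinases and motor proteins, the spindle checkpoint and the machinery that destroys cyclins at anaphase. Microglia, the resident macrophages of the brain, divide little in the healthy adult and more in culture or after injury, and interferons are known to restrain the division of many cell types. A list of 40 such genes, 26 of mitosis and 14 of DNA replication, was followed by gene symbol. Of these, 39 were read on the array by 68 probe sets, 25 mitosis genes by 39 probe sets and 14 replication genes by 29, among 12394 genes with a probe set of their own; the cyclin gene Ccnb1 was not analysed here.

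The study measured RNA of primary microglia from WT mice, mice without Usp18 (Usp18ko, here KO) and Usp18_C61A mice (here C61A), and of BV-2 cells, a mouse microglial line immortalised with retroviral oncogenes, given siRNA against Usp18 or control siRNA. Usp18 removes the ubiquitin-like modifier ISG15 from proteins and, apart from this, limits signalling by the type I interferon receptor; the C61A allele changes the cysteine of its active site. Each kind of cell was untreated (0 h) or given 500 U/ml IFN-b, a type I interferon, for 6 h or 24 h, in medium with fetal calf serum. The 36 arrays form 18 groups of 2 and 3 runs of 12 in the order of deposition: run 1 with KO and its WT, run 2 with BV-2, and run 3 with C61A and its own WT. What the runs stand for, the age of the mice and any pooling of animals are not in the labels; replicates are called biological, and p-values measure the spread between these arrays only. Since RNA was taken from whole cultures, fewer dividing cells and less of an RNA per cell cannot be told apart. No array is untreated at 6 h or 24 h, so IFN-b and time in culture cannot be told apart in a change from 0 h.

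Some arrays stood apart. Usp18 itself read 5.68 and 5.99 in untreated WT of run 1 against 4.40 and 3.77 in KO, and at 6 h 12.56 and 12.41 against 6.42 and 5.85, a log2 difference of -6.35 (limma, adjusted p = 0.0023). With Usp18 siRNA the untreated BV-2 arrays read 7.92 and 9.0 against 8.38 and 8.59 with control siRNA, and the difference was -0.02 at 0 h, -0.29 at 6 h and -0.34 at 24 h, with adjusted p-values of 1.000, 0.763 and 0.632. A knockdown was thus not seen in Usp18 RNA on these arrays, and "Usp18 siRNA" below means the arrays labelled so. Untreated WT replicate 1 of run 3 held Usp18 at 12.97, a level of the IFN-b arrays, where replicate 2 held 9.31. Untreated C61A, also of run 3, held 10.48 and 8.51. Untreated WT of run 1 was lower in Usp18 than that of run 3, at -5.31 ± 0.906 (limma, adjusted p = 8.7e-04). In WT of run 3 the change of Usp18 from 0 h was not called at 6 h (1.75 ± 0.906, adjusted p = 0.997) or 24 h (1.54 ± 0.906, adjusted p = 0.634). C61A replicate 2 at 6 h held Ctsk, a protease gene at 13.26 to 13.56 in BV-2, at 12.39. C61A replicate 1 and WT replicate 1 of run 3 at 6 h held it at 9.45 and 8.11, and the other run 3 arrays lay between 4.49 and 5.94. Usp18 siRNA replicate 2 at 6 h held the microglial gene C1qa at 9.96 and Cdkn2a at 9.27, where the other BV-2 arrays lay at 3.54 to 5.10 and 2.95 to 3.48. The 3 arrays said below to stand apart are untreated WT replicate 1 of run 3, C61A replicate 2 at 6 h and Usp18 siRNA replicate 2 at 6 h. Counts that rest on them are also given without them where they moved. The run 3 arrays with Ctsk at 9.45 and 8.11 were kept in those counts. The microglia markers were above the array median on every array in 11 of 11 genes in KO and WT of run 1, and in 10 of 11 in WT of run 3 and in C61A. In BV-2 with control siRNA 7 of 11 were, with C1qa and P2ry12 below it.

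The stretches before the start sites of the genes were read for the motifs that tie them to their phase of the cycle. The CCAAT box (CCAAT) is bound by NF-Y, the CHR (TTTGAA) by the MuvB complex in mitosis genes, and the E2F motif (searched as TTTCCCGC, TTTGGCGC, TTTGCCGC and TTTCGCGC) by E2F factors in replication genes. On either strand of the 250 bases before the start, 18 of 22 listed mitosis genes with a window in RefSeq's GRCm38.p6 annotation held a CCAAT box and 9 of 12 replication genes, that is 81.8% and 75% against 37.5% of all 27025 genes. A CHR stood before 10 of 22 mitosis genes (45.5%) and 2 of 12 replication genes (16.7%), against 18.3% of all genes. An E2F motif stood before 1 of 22 mitosis genes (4.55%) and 4 of 12 replication genes (33.3%; Cdc6, Mcm5, Mcm6 and Mcm7), against 2.16%. A match is a run of letters and not a shown binding site. The windows of 5 genes whose results are given below are shown as examples of these matches, both replication genes being among the 4 with an E2F motif, as the 180 bases before the start, 5′ to 3′ on the strand of the gene, with matches in capitals. Cdc20 (chr4:118437344-118437523, minus strand), Ccnb2 (chr9:70421555-70421734, minus strand) and Cdk1 (chr10:69352913-69353092, minus strand) are mitosis genes, and Mcm5 (chr8:75109329-75109508, plus strand) and Cdc6 (chr11:98907971-98908150, plus strand) replication genes.
Cdc20: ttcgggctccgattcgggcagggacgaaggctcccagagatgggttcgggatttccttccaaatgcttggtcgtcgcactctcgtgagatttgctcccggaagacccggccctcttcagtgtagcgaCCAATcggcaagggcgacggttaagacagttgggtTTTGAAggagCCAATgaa
Ccnb2: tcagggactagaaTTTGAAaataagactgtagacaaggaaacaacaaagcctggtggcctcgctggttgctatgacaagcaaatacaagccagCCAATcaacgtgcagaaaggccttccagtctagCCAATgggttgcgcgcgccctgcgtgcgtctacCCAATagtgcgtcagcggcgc
Cdk1: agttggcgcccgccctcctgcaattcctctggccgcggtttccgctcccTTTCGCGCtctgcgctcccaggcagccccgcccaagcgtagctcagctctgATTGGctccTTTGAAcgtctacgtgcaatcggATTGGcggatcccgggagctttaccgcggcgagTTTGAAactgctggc
Mcm5: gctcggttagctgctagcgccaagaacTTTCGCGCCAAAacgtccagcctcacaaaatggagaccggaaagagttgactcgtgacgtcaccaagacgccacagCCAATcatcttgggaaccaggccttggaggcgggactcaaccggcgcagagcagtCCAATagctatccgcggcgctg
Cdc6: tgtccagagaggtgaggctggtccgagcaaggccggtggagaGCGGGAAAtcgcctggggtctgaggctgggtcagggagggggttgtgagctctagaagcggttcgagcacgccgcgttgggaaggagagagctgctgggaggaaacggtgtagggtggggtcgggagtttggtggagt
Cdc20 holds a CHR and CCAAT boxes close to the start, Ccnb2 3 CCAAT boxes with a CHR further away, and Cdk1 both motifs, with CCAAT read on the other strand as ATTGG, beside the 1 E2F match among mitosis genes. In Mcm5 a pair of E2F matches, 1 on each strand, overlap in 1 run of capitals and 2 CCAAT boxes follow, and the match in Cdc6 lies on the other strand. The start sites of these windows lie inside the annotated genes, which begin at chr8:75109468 for Mcm5 and chr11:98907709 for Cdc6. The Cdc6 stretch thus lies wholly inside the gene, and the Mcm5 stretch in part.

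All values below are deposited log2 intensities, or differences of them (log2 differences) with the standard error of the fit after ±. Tests were confined to genes with a probe set brighter than the array median on 2 or more arrays, and "called" means an adjusted p under 0.05 (Benjamini-Hochberg over all genes tested). In microglia 19 mitosis and 11 replication genes passed that filter; Depdc1a, Cenpe, Kif11, Kif20a, Ttk, Nek2, Cdc6, Cdc45 and Tyms did not. In BV-2 25 and 13 passed, and Tyms, the enzyme that makes thymidylate, did not: it read 2.58 to 3.42 on the 36 arrays, and all 3 of its probe sets lay below the median on every one. Levels of different genes cannot be compared on an array, since probe sets differ in brightness.

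The genes moved together across arrays. The correlation of a mitosis gene with the mean of the others had a median of 0.98 over the 12 BV-2 arrays and 0.89 over the 24 microglia arrays, highest for Cdc20 in BV-2 (0.99) and for Mki67, the proliferation antigen, in microglia (0.98). For replication genes the medians were 0.91 and 0.76, led by Mcm3 (0.97) and Mcm7 (0.89). The lowest values were those of Tpx2, which activates the spindle kinase Aurka, among mitosis genes (-0.50 in BV-2, -0.34 in microglia), of Tyms in BV-2 (-0.31) and of Gins1, a subunit of the GINS complex of the replicative helicase, in microglia (-0.27). These correlations describe arrays of shared groups and cultures.

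**Figure D1:**
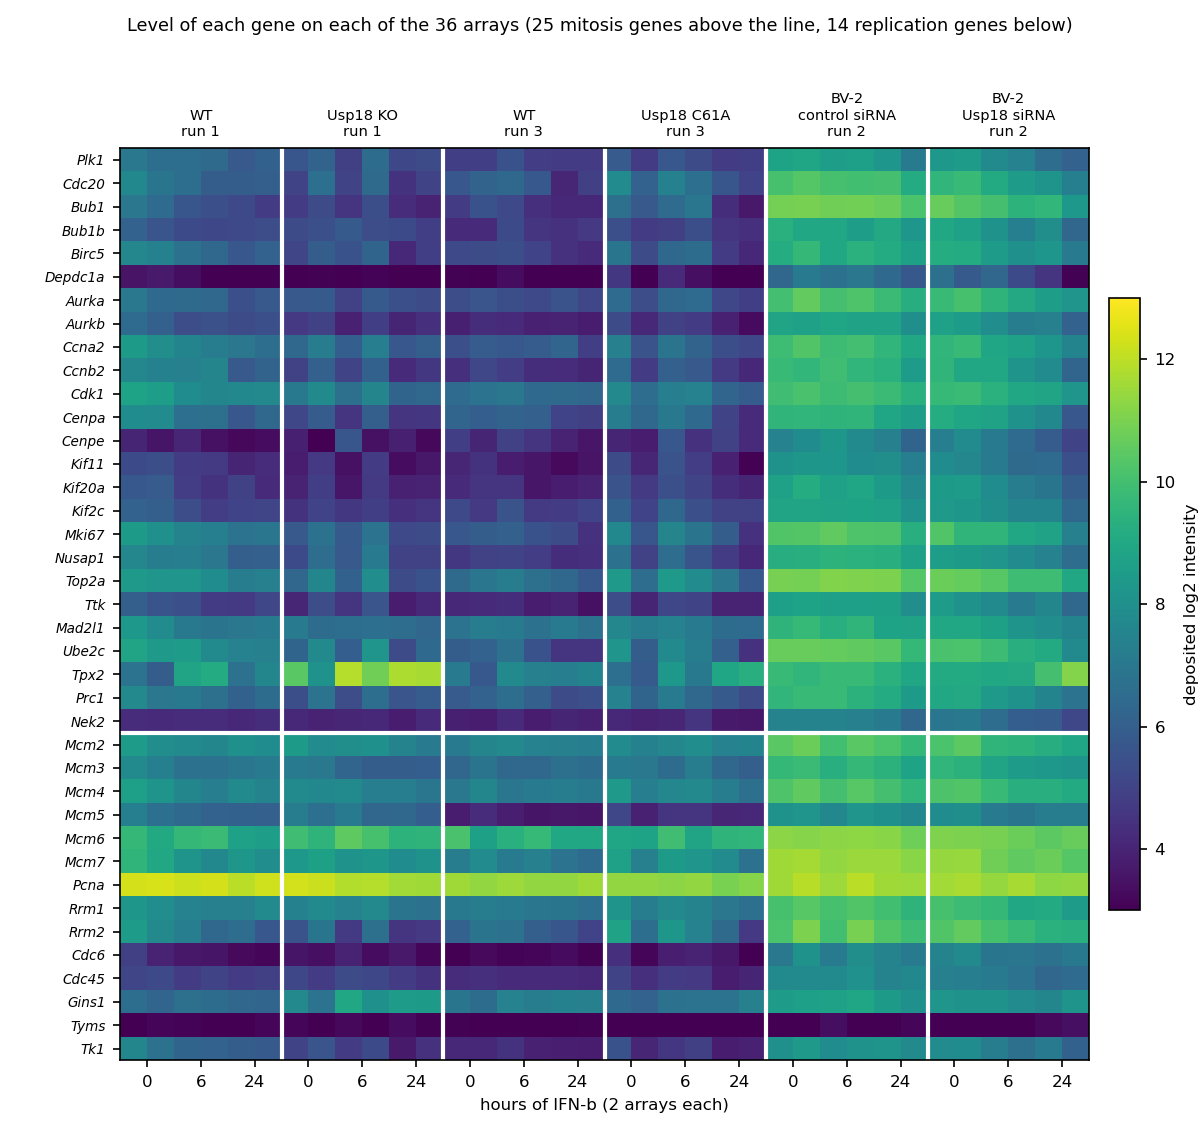
Deposited log2 intensity of each gene (rows: 25 mitosis genes above the line, 14 replication genes below it) on each of the 36 arrays (columns, by group and hours of IFN-b, 2 arrays each). Colours compare arrays within a row only; most rows are brightest in BV-2, whereas Tpx2 is brightest in KO microglia.

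Untreated BV-2 cells held far more of these RNAs than untreated WT microglia. All 25 mitosis genes measured and 12 of the 13 replication genes tested were higher with control siRNA in BV-2 than in WT microglia, a median log2 difference of 3.37 and 2.68, where the median of all genes tested was -0.02 (limma over 36 arrays; 29.7% of all genes were called higher). On microglia arrays alone 19 of these mitosis genes and 11 of these replication genes passed the filter, and the rest passed only with BV-2. All 39 members were therefore also tested with no filter, where 37 were higher, against 21.1% of all 12394 genes. Bub1, a kinase of the spindle checkpoint, read 10.91 and 10.93 in BV-2, 6.95 and 6.51 in WT of run 1 and 4.79 and 5.53 in WT of run 3. Its log2 difference was 4.97 ± 0.354 (adjusted p = 1.1e-09), and the BV-2 arrays lay above all WT arrays. The centrosome kinase Aurka was higher by 4.21 ± 0.285 (adjusted p = 5.4e-10), the checkpoint protein gene Bub1b by 4.11 ± 0.343 (adjusted p = 7.1e-09) and the kinesin gene Kif20a by 3.88 ± 0.355 (adjusted p = 2.5e-08). Among replication genes the MCM loader Cdc6 led, at 7.02 and 8.14 in BV-2 against 4.91, 4.0, 2.87 and 3.27 in WT, a log2 difference of 3.82 ± 0.333 (adjusted p = 1.3e-08). Rrm2, the regulated subunit of ribonucleotide reductase, followed with 3.27 ± 0.605 (adjusted p = 1.1e-04), and the helicase gene Mcm7 with 3.23 ± 0.308 (adjusted p = 4.4e-08).

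Pcna, the sliding clamp of DNA polymerase, was the exception. It read 11.57 and 11.94 in BV-2, 12.36 and 12.40 in WT of run 1 and 11.58 and 11.38 in WT of run 3, so that BV-2 lay below run 1 and overlapped run 3. The log2 difference was -0.18 ± 0.139 (adjusted p = 0.282), and -0.63 ± 0.160 (adjusted p = 0.0024) against run 1 alone. Other genes of the process shared the pattern of the list: 23 of 24 other replication and repair factors tested were higher and none lower, led by Hells (4.26 ± 0.330, adjusted p = 3.1e-09), a chromatin remodeller, and Cdc7 (3.51 ± 0.272, adjusted p = 3.1e-09), the kinase that fires origins, and 23 of 24 other spindle and kinetochore genes were higher and none lower. Of 7 genes of CDK inhibitors 4 were lower, Cdkn2a, Cdkn2b, Cdkn1b and Cdkn1a, and Cdkn2d and Cdkn1c were higher. The same genes were called against WT of run 3 alone. Against WT of run 1 alone Cdkn1b, Cdkn2b and Cdkn2c were lower and Cdkn1c was higher. Cdkn2a read 3.04 and 3.28 in BV-2, 4.95 and 5.21 in WT of run 1 and 10.20 and 9.90 in WT of run 3, so that its mean difference (-4.41 ± 0.855, adjusted p = 1.8e-04) lies between those of both runs. The D-type cyclin gene Ccnd2 was lower in BV-2 by 4.81 on the log2 scale (SE 0.706, adjusted p = 8.3e-06), while Ccne1 (2.69 ± 0.211) and Ccne2 (3.19 ± 0.394), cyclins of S phase entry, were higher. Among markers, 9 of 11 microglia genes, 5 of 7 astrocyte genes and 4 of 6 oligodendrocyte genes tested were lower in BV-2 too, and none of these was higher. The astrocyte count differed by run, with 1 of 7 lower against WT of run 1 alone and 6 of 7 against run 3 alone. The part of these cells in the difference was not tested. The 37 calls were the same in number without any 1 array and without the 3 arrays that stood apart. The cells also differ in run, so cell type and run cannot be told apart.

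**Figure D2:**
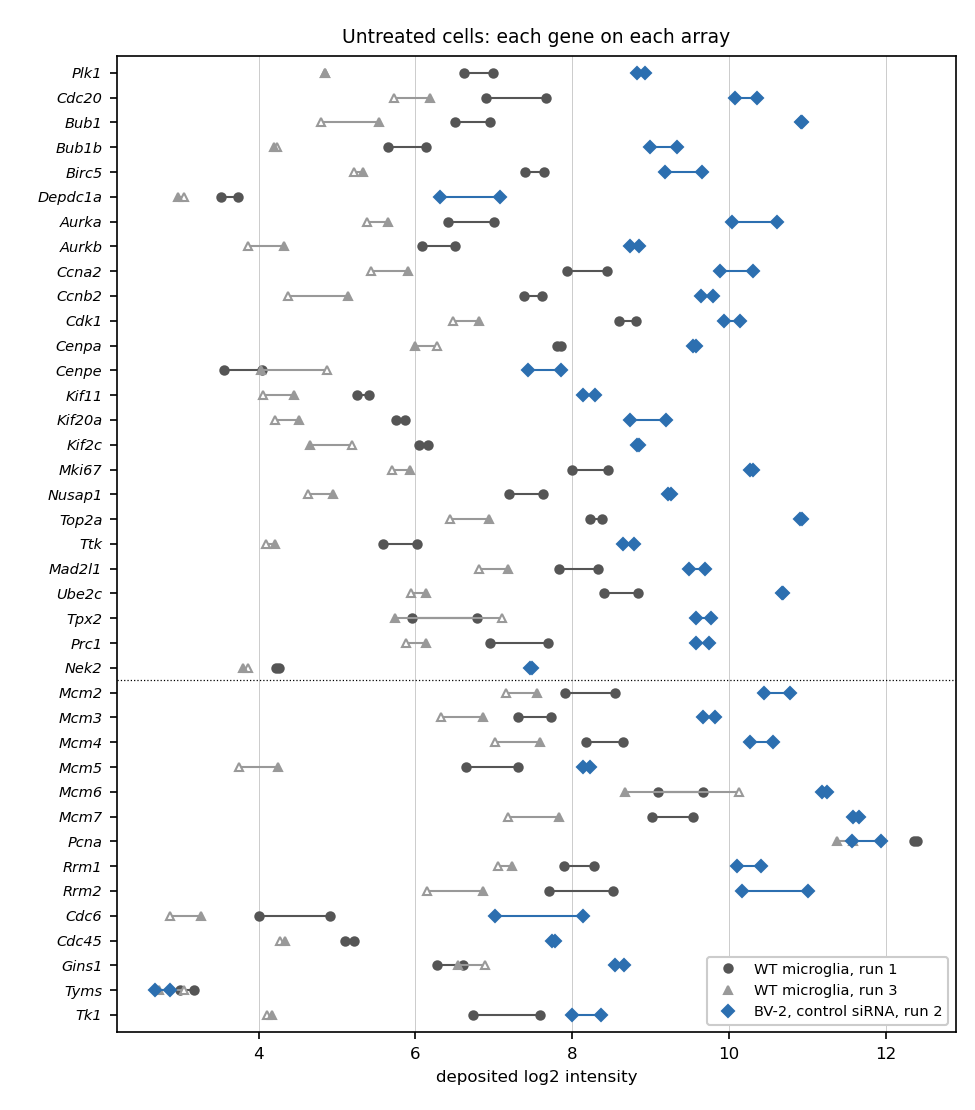
Deposited log2 intensity (x axis) of each gene (rows, mitosis above the dotted line and replication below it) on each untreated array of WT microglia of run 1 (dark circles), WT of run 3 (grey triangles, the array that stood apart open) and BV-2 with control siRNA (blue diamonds); a line joins both arrays of a group. BV-2 lies to the right of both WT runs in nearly every row, Pcna and Tyms excepted.

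WT microglia of both runs, which have the same labels, differed in many of these genes. In untreated cells 16 of 19 mitosis genes and 7 of 11 replication genes tested were higher in run 1 than in run 3 and none was lower (15.6% of all genes were called higher; with no filter 27 of 39 were, against 11.7%). Tk1, which salvages thymidine, read 7.59 and 6.73 in run 1 against 4.11 and 4.17 in run 3, a log2 difference of 3.02 ± 0.393 (adjusted p = 1.1e-04). Mcm5 read 7.31 and 6.64 against 3.75 and 4.25, a difference of 2.98 ± 0.355 (adjusted p = 4.9e-05). Both groups of arrays stood well apart in these genes. Tk1 passed the filter through WT of run 1 alone and Mcm5 through arrays of run 1 alone, and both were also called with no filter. Ccnb2, a B-type cyclin, differed by 2.74 ± 0.493 (adjusted p = 0.0012), the spindle gene Nusap1 by 2.61 ± 0.544 (adjusted p = 0.0030), the ubiquitin-conjugating enzyme gene Ube2c by 2.59 ± 0.814 (adjusted p = 0.0290) and Ccna2, the cyclin of S and G2 phase, by 2.52 ± 0.557 (adjusted p = 0.0043). Pcna differed by 0.91 ± 0.144 (adjusted p = 5.4e-04), whereas Tpx2 (-0.05 ± 0.659), Gins1 (-0.28 ± 0.305) and Mcm6 (-0.02 ± 0.391) were not called. At 6 h 7 mitosis and 3 replication genes were higher in run 1 (15.4% of all genes), and at 24 h 9 and 5 (17.9%), with Ccnb2 at 2.88 ± 0.493 and 1.86 ± 0.493 and Mcm5 at 2.59 ± 0.355 and 2.46 ± 0.355. Gins1 alone was lower in run 1 at 24 h, by 1.10 on the log2 scale (SE 0.305, adjusted p = 0.0125; 14.8% of all genes were called lower). Cdkn2a, whose products p16 and p19Arf arrest the cycle, went the other way, with 3.69 to 5.21 on the 12 arrays of run 1 and 9.72 to 10.48 on the 12 of run 3; Cdkn2a, Cdkn2b and Cdkn1a were called lower in run 1 at 0 h and Cdkn2c higher.

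Without untreated WT replicate 1 of run 3, which stood apart, 13 members were called at 0 h in place of 23, and without replicate 1 of run 1 9 were. At 6 h, where 10 members were called, 6 and 5 were without replicate 1 or 2 of run 1 and 4 without replicate 2 of run 3. At 24 h, where 15 were called, 9 and 4 were without replicate 1 or 2 of run 1 and 4 without replicate 2 of run 3. The astrocyte markers, 8 genes, averaged 5.56 and 5.19 on untreated WT replicates 1 and 2 of run 1 and 6.98 and 8.67 on those of run 3. Over all times that mean ran from 4.90 to 5.56 and from 5.72 to 8.67. Gfap, Aqp4, Slc1a2, Slc1a3, S100b and Gja1 lay below the array median on every WT array of run 1. Whether these cells play a part in the difference was not tested. Every genotype is compared below with WT of its own run.

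**Figure D3:**
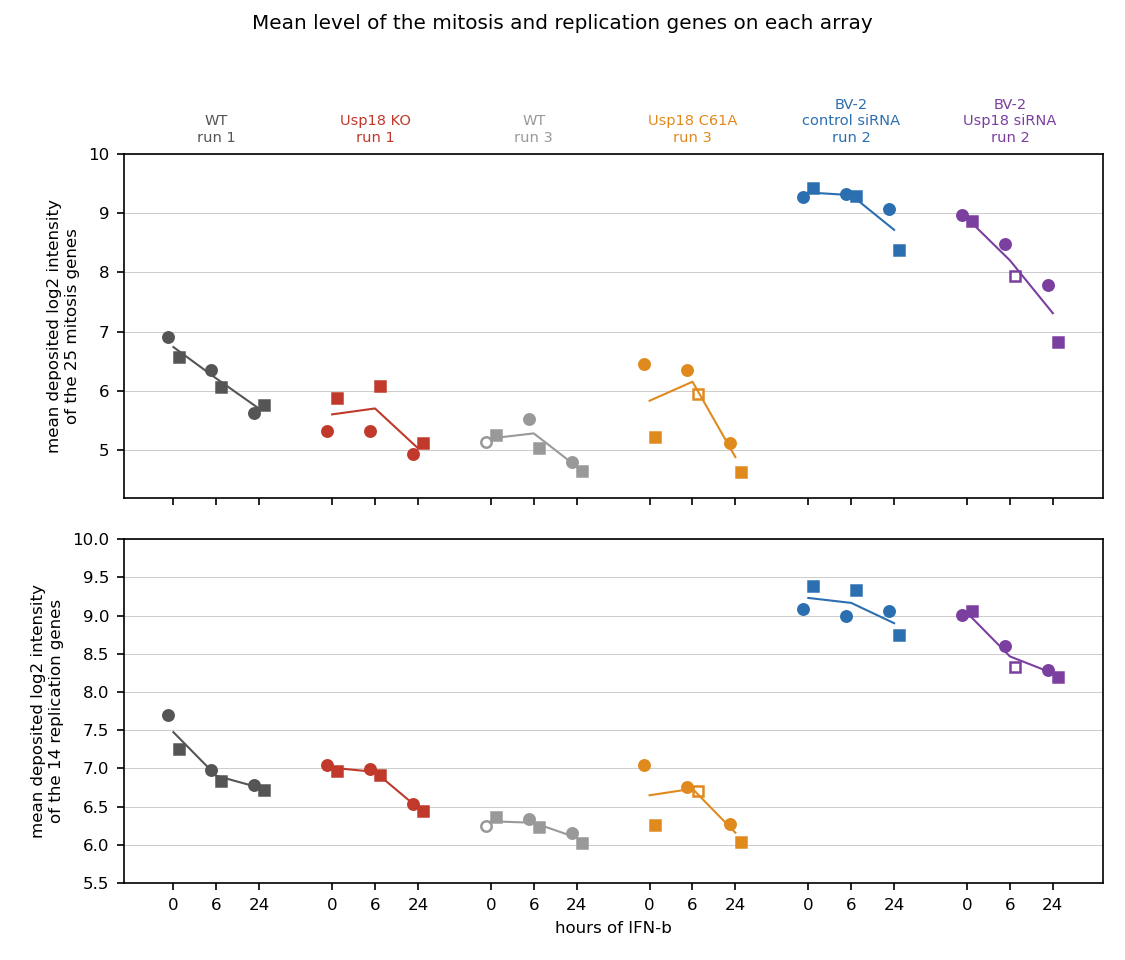
Mean deposited log2 intensity of the 25 mitosis genes (top) and the 14 replication genes (bottom) on each array (y axis) against hours of IFN-b (x axis), by genotype or siRNA; circles are replicate 1, squares replicate 2, open symbols the 3 arrays that stood apart, and lines join group means. With Usp18 siRNA the mitosis mean goes from 8.96 and 8.86 at 0 h to 7.79 and 6.83 at 24 h, and KO lies below WT of run 1 at 0 h and at 24 h.

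In BV-2 with Usp18 siRNA, the mitosis genes fell over 24 h of IFN-b. The mean of the 25 mitosis genes was 8.96 and 8.86 at 0 h, 8.47 and 7.93 at 6 h, and 7.79 and 6.83 at 24 h, while with control siRNA it was 9.27 and 9.42, 9.32 and 9.28, and 9.06 and 8.37. With Usp18 siRNA 23 of 25 mitosis genes and 8 of 13 replication genes fell from 0 h to 24 h (9.24% of all genes were called lower), with median log2 changes of -1.72 and -0.91 where all genes tested had -0.11. With no filter 22 and 7 of the 39 members fell, against 3.65% of all genes. Levels are given as replicate 1 and 2, at 0 h, 6 h and 24 h in turn. Plk1, the polo-like kinase that starts mitosis and builds the spindle, read 8.82 and 8.93, 8.62 and 8.63, and 8.27 and 7.15 with control siRNA and 8.33 and 8.5, 7.74 and 7.42, and 6.57 and 6.14 with Usp18 siRNA. Cdc20, the activator that turns the anaphase-promoting complex on cyclins, read 10.08 and 10.35, 10.08 and 9.98, and 10.04 and 9.16 against 9.60 and 9.75, 9.10 and 8.51, and 8.16 and 7.30. Both arrays at 24 h with Usp18 siRNA lay below all other BV-2 arrays in both genes. The change from 0 h to 24 h with Usp18 siRNA was -2.06 ± 0.319 for Plk1 (adjusted p = 0.0069) and -1.94 ± 0.349 for Cdc20 (adjusted p = 0.0116).

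Birc5, survivin of the chromosomal passenger complex, read 9.18 and 9.65, 8.98 and 9.38, and 9.14 and 8.70 with control siRNA and 9.18 and 9.17, 8.54 and 8.01, and 8.27 and 7.07 with Usp18 siRNA. Mki67 read 10.27 and 10.31, 10.55 and 10.26, and 10.22 and 9.27 against 10.27 and 9.55, 9.53 and 8.95, and 8.77 and 7.36. Cdk1, the kinase of mitotic entry, read 9.94 and 10.14, 9.87 and 10.05, and 9.82 and 9.36 against 9.68 and 9.81, 9.38 and 9.01, and 8.85 and 8.20. In each of these, replicate 2 at 24 h was lower than replicate 1 under both siRNAs. Top2a, the topoisomerase that disentangles chromosomes, read 10.93 and 10.90, 11.11 and 11.05, and 11.02 and 10.36 against 10.74 and 10.65, 10.40 and 9.90, and 9.89 and 8.95. The largest falls with Usp18 siRNA were those of Depdc1a (-2.49 ± 0.541, adjusted p = 0.0203), of Cenpa, the histone of centromeres (-2.33 ± 0.506, adjusted p = 0.0202), of Ccnb2 (-2.23 ± 0.496, adjusted p = 0.0219) and of the kinetochore motor Cenpe (-2.08 ± 0.428, adjusted p = 0.0169). The checkpoint kinase gene Ttk was not called (-1.33 ± 0.400, adjusted p = 0.0516).

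Tpx2 went against the list. It read 9.77 and 9.58, 9.74 and 9.75, and 9.37 and 8.88 with control siRNA and 9.11 and 9.10, 8.98 and 9.02, and 10.05 and 11.16 with Usp18 siRNA, so that only its arrays at 24 h with Usp18 siRNA rose above 10. The change was 1.5 ± 0.313 (adjusted p = 0.0177; 6.62% of all genes were called higher). A dimmer probe set of Tpx2 changed by -0.34 in the same comparison, so this rise rests on 1 of the 2 probe sets.

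Among replication genes fewer were called and the median change was smaller. Mcm2 read 10.44 and 10.77, 9.96 and 10.43, and 10.18 and 9.65 with control siRNA and 10.16 and 10.47, 9.54 and 9.48, and 9.23 and 8.91 with Usp18 siRNA. Mcm3 read 9.66 and 9.82, 9.26 and 9.66, and 9.41 and 8.82 against 9.59 and 9.43, 8.84 and 8.49, and 8.33 and 8.17. Mcm4 read 10.26 and 10.56, 10.07 and 10.39, and 10.06 and 9.59 against 10.21 and 10.29, 9.72 and 9.26, and 9.32 and 9.12. These subunits of the helicase had their lowest group mean at 24 h with Usp18 siRNA, and fell there by 1.25, 1.26 and 1.03 on the log2 scale (SE 0.244, 0.234 and 0.228; adjusted p = 0.0147, 0.0126 and 0.0212). Mcm5 read 8.13 and 8.23, 7.66 and 8.20, and 8.0 and 7.67 against 7.86 and 7.99, 7.12 and 6.88, and 7.19 and 7.20. Mcm6 read 11.25 and 11.18, 11.28 and 11.32, and 11.23 and 10.78 against 11.06 and 11.01, 10.96 and 10.74, and 10.47 and 10.68. Mcm7 read 11.58 and 11.66, 11.36 and 11.49, and 11.51 and 11.21 against 11.40 and 11.45, 10.85 and 10.57, and 10.76 and 10.35. Of these Mcm5 (-0.73 ± 0.206, adjusted p = 0.0427) and Mcm7 (-0.87 ± 0.188, adjusted p = 0.0198) were called and Mcm6 was not (-0.46 ± 0.181, adjusted p = 0.112). For the nucleotide enzymes, Tk1 read 8.0 and 8.36, 7.85 and 8.10, and 8.19 and 7.75 against 7.82 and 7.87, 7.22 and 6.68, and 7.09 and 6.12, and Rrm2 10.16 and 11.01, 9.97 and 10.94, and 10.28 and 9.89 against 10.30 and 10.60, 10.10 and 9.74, and 9.38 and 9.28. Tk1 fell (-1.24 ± 0.321, adjusted p = 0.0341), as did the partner of Rrm2, Rrm1 (-1.18 ± 0.291, adjusted p = 0.0290), and Rrm2 itself was not called (-1.12 ± 0.356, adjusted p = 0.0619). Cdc6 read 7.02 and 8.14, 7.09 and 7.96, and 7.46 and 7.10 against 7.47 and 7.80, 6.87 and 6.91, and 6.76 and 7.06 and Pcna 11.57 and 11.94, 11.55 and 11.96, and 11.58 and 11.52 against 11.61 and 11.72, 11.40 and 11.70, and 11.31 and 11.36. Neither was called, at -0.72 ± 0.378 (adjusted p = 0.211) and -0.33 ± 0.197 (adjusted p = 0.263), nor was Gins1 (-0.28 ± 0.224, adjusted p = 0.410).

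Among other genes of the process, 17 of 24 spindle and kinetochore genes fell with Usp18 siRNA, with Aspm at -2.07 ± 0.50 (adjusted p = 0.0277), Kif23 at -1.96 ± 0.348 (adjusted p = 0.0111) and Anln at -1.92 ± 0.417 (adjusted p = 0.0201), and Pttg1, securin, rose by 1.23 ± 0.159 (adjusted p = 0.0043). Of 24 other replication factors 10 fell and none rose, with Dbf4 at -1.04 ± 0.219 (adjusted p = 0.0182), the partner of Cdc7. Cdc25c, the phosphatase that switches Cdk1 on, fell by 1.42 on the log2 scale (SE 0.201, adjusted p = 0.0054), and Mybl2, a MuvB partner, by 1.15 (SE 0.269, adjusted p = 0.0257). No CDK inhibitor gene was called of 5 tested. The 32 calls became 0 without untreated replicate 1, 2 without untreated replicate 2 and 0 without replicate 2 at 24 h, and 32 without replicate 1 at 24 h, each with Usp18 siRNA.

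With control siRNA no member was called at 24 h by limma (0 of 7163 genes, 0%, were called lower), although each of the 38 tested had a negative change, with medians of -0.62 for mitosis and -0.34 for replication genes, and 9 reached an unadjusted p under 0.05. At 6 h no member was called with control siRNA (0% of all genes called lower; 0 members at an unadjusted p under 0.05) or with Usp18 siRNA by limma (0.949% of all genes called lower; 16 members at an unadjusted p under 0.05, all 38 changes negative). With Usp18 siRNA 5 members were called at 6 h without replicate 1 of 6 h, and 0 without replicate 2, which stood apart. The difference between the responses under both siRNAs was not called for any member, at 6 h (0% of all genes; 1 member at an unadjusted p under 0.05) or at 24 h (0.0279%; 12 members, 11 lower and Tpx2 higher by 2.05). Without Usp18 siRNA replicate 1 of 24 h, 3 members were called in the latter.

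Set side by side at 24 h, the Usp18 siRNA arrays held less of 11 mitosis genes and 3 replication genes than the control arrays (2.28% of all genes were called lower), with medians of -1.48 and -0.75. With no filter 6 members were lower, against 0.347% of all genes. Nusap1 read 9.31 and 8.71 with control siRNA and 7.43 and 6.58 with Usp18 siRNA, a log2 difference of -2.0 ± 0.293 (adjusted p = 0.0150). Depdc1a (-2.30 ± 0.541, adjusted p = 0.0466), Cdc20 (-1.87 ± 0.349, adjusted p = 0.0287), the kinesin genes Kif20a (-1.65 ± 0.362, adjusted p = 0.0411) and Kif11 (-1.64 ± 0.365, adjusted p = 0.0422) and Prc1, which bundles the central spindle (-1.63 ± 0.291, adjusted p = 0.0261), were lower too. Plk1 (-1.35 ± 0.319, adjusted p = 0.0466), Ccna2, Cdk1, Kif2c and Mad2l1 complete the 11, and the replication genes were Tk1 (-1.36 ± 0.321, adjusted p = 0.0466), Cdc45, which joins the MCM ring with GINS (-1.17 ± 0.181, adjusted p = 0.0164), and Mcm7 (-0.81 ± 0.188, adjusted p = 0.0456). Same-numbered arrays of both siRNAs deviated together (correlations 0.322 to 0.506), a pairing that was not modelled. A random block for the culture joined arrays of 1 siRNA and 1 replicate number over the times. With it 19 members were called, Plk1 and Cdk1 not among them. With no filter Nusap1, Cdc20, Prc1, Ccna2, Mad2l1 and Cdc45 were the 6 lower. Tpx2 was higher by 1.48 ± 0.313 (adjusted p = 0.0384; 3.07% of all genes were called higher), and its other probe set read higher by 0.53. The call was lost with no filter and with the mean of the kept probe sets. Birc5 (-1.25 ± 0.376, adjusted p = 0.0772), Mki67 (-1.68 ± 0.474, adjusted p = 0.0682) and Top2a (-1.27 ± 0.320, adjusted p = 0.0527) were not called, and all 3 had both Usp18 siRNA arrays below both control arrays.

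The other spindle genes were lower in 13 of 24, with Kif18a at -2.14 ± 0.496 (adjusted p = 0.0453) and Hmmr at -1.88 ± 0.417 (adjusted p = 0.0414), with Pttg1 higher by 0.91 ± 0.159 (adjusted p = 0.0244), and the other replication factors in 6 of 24, with Cdc7 at -1.42 ± 0.262 (adjusted p = 0.0276). The checkpoint kinase genes Chek2 (-1.62 ± 0.332, adjusted p = 0.0366) and Chek1 (-1.30 ± 0.250, adjusted p = 0.0304) and Cdc25c were lower, and the G1 cyclin gene Ccnd3 (0.85 ± 0.206, adjusted p = 0.0484) was higher. At 0 h the list means lay at 8.96 and 8.86 against 9.27 and 9.42 for mitosis genes, and no member was called by limma (0% of all genes called lower; 3 members at an unadjusted p under 0.05). At 6 h no member was called either (0% of all genes), with 32 lower at an unadjusted p under 0.05 and all 38 differences negative; Nusap1 had -1.41 ± 0.293 (adjusted p = 0.184), and 0 were called without the array that stood apart and 3 without replicate 1 of that group. At 24 h 25 members were called without that array, 24 lower and Tpx2 higher. The 15 calls at 24 h became 0 without control replicate 1, 1 without control replicate 2, 31 without Usp18 siRNA replicate 1 and 0 without its replicate 2.

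**Figure D4:**
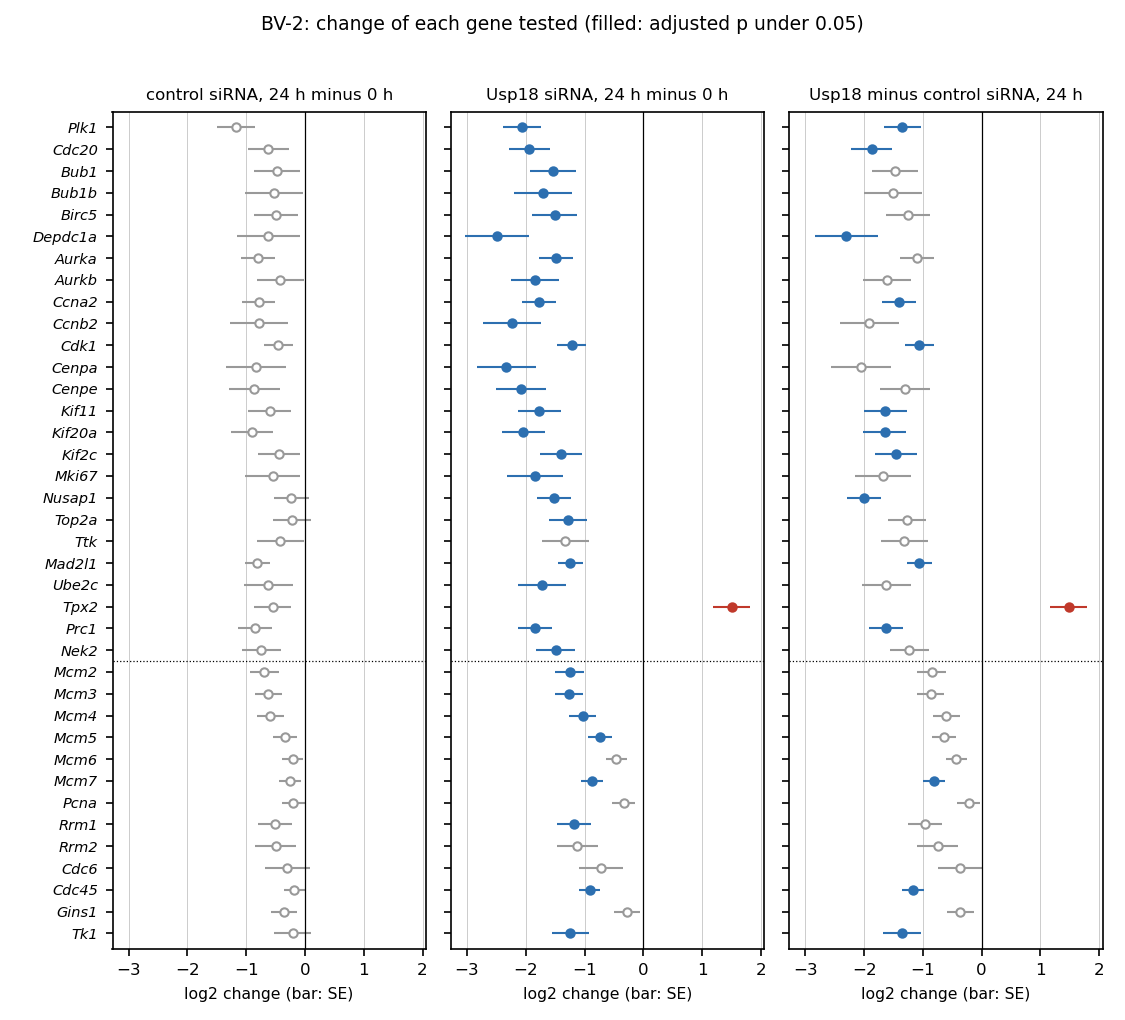
Log2 change of each gene tested in BV-2 (rows, mitosis above the dotted line) from 0 h to 24 h of IFN-b with control siRNA (left) and Usp18 siRNA (middle), and log2 difference of Usp18 siRNA minus control siRNA at 24 h (right); bars are standard errors and filled points have an adjusted p under 0.05, blue lower and red higher. All points lie left of 0 with control siRNA, none filled; Tpx2 alone lies right of 0 in the other panels.

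In untreated microglia, KO cells held less of the mitosis genes than WT of run 1. The mean of the 25 mitosis genes was 5.33 and 5.88 in KO and 6.91 and 6.57 in WT, and 9 of 19 mitosis genes tested and 1 of 11 replication genes were lower (8.78% of all genes were called lower), with medians of -1.36 and -0.31 where all genes had -0.10. With no filter 11 of 39 were lower, against 4.67% of all genes, and the medians over all 39 were -1.30 and -0.26. Levels are again given as replicate 1 and 2 at 0 h, 6 h and 24 h. Birc5 read 7.64 and 7.4, 6.78 and 6.39, and 5.72 and 6.13 in WT and 5.08 and 5.94, 5.51 and 6.21, and 4.12 and 4.87 in KO. Mki67 read 8.45 and 8.0, 7.49 and 7.32, and 6.8 and 6.94 against 5.78 and 6.75, 5.84 and 6.81, and 5.19 and 5.29. Cdk1 read 8.81 and 8.59, 7.85 and 7.59, and 7.68 and 7.72 against 7.06 and 7.78, 6.71 and 7.55, and 6.21 and 6.35. Both untreated KO arrays lay below both untreated WT arrays in these genes, and KO replicate 2 lay above replicate 1. The log2 differences at 0 h were -2.01 ± 0.439 (adjusted p = 0.0085), -1.96 ± 0.594 (adjusted p = 0.0367) and -1.28 ± 0.348 (adjusted p = 0.0239). Cenpa (-2.31 ± 0.426, adjusted p = 0.0037), Ccnb2 (-1.98 ± 0.493, adjusted p = 0.0157), Bub1 (-1.71 ± 0.390, adjusted p = 0.0106), Aurkb, the kinase of the passenger complex, Kif2c and Mad2l1 were lower too. Dimmer probe sets, which failed the filter, gave -0.27 for Bub1, -0.48 for Aurkb and -0.63, -0.15 and 0.13 for Kif2c. The other mitosis genes called lower had 1 probe set each. Aurkb passed the filter through untreated WT of run 1 alone, and was also called with no filter (-1.48 ± 0.360, adjusted p = 0.0196). Bub1 and Kif2c passed through untreated WT of run 1 and C61A at 0 h and 6 h only, and were also called with no filter.

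Plk1 read 6.99 and 6.62, 6.63 and 6.44, and 5.78 and 6.10 in WT and 5.66 and 6.18, 4.88 and 6.53, and 5.18 and 5.32 in KO. Cdc20 read 7.67 and 6.90, 6.61 and 5.94, and 5.96 and 6.02 against 5.04 and 6.65, 5.07 and 6.47, and 4.46 and 5.05 by the probe set used in BV-2. Top2a read 8.38 and 8.23, 8.21 and 7.85, and 7.21 and 7.34 against 6.31 and 7.6, 6.11 and 7.89, and 5.31 and 5.52. At 0 h both KO arrays read below both WT arrays, but these genes were not called, at -0.89 ± 0.430 (adjusted p = 0.169), -1.30 ± 0.571 (adjusted p = 0.131, by the probe set used in microglia) and -1.35 ± 0.618 (adjusted p = 0.145).

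Most replication genes were not called between untreated KO and WT. Mcm2 read 8.54 and 7.91, 7.75 and 7.59, and 8.01 and 7.86 in WT and 8.43 and 7.81, 7.93 and 8.01, and 7.46 and 7.10 in KO. Mcm3 read 7.73 and 7.31, 6.78 and 6.76, and 6.94 and 7.16 against 7.11 and 7.02, 6.25 and 5.95, and 5.93 and 5.97 by the probe set used in BV-2. Mcm4 read 8.64 and 8.18, 7.6 and 7.26, and 7.77 and 7.47 against 7.78 and 7.66, 7.76 and 7.28, and 7.27 and 6.93. The untreated groups overlapped in Mcm2 and, by the probe set tested, in Mcm3. Mcm5 read 7.31 and 6.64, 6.42 and 6.16, and 6.12 and 6.07 against 7.22 and 6.66, 7.09 and 6.29, and 6.38 and 6.00. Mcm6 read 9.66 and 9.09, 9.67 and 9.80, and 8.72 and 8.57 against 9.92 and 9.51, 10.52 and 10.08, and 9.46 and 9.51. Mcm7 read 9.54 and 9.01, 8.17 and 7.65, and 8.28 and 7.92 against 8.35 and 8.67, 8.11 and 8.28, and 7.87 and 8.11. None of these helicase genes was called at 0 h, at -0.11 ± 0.242 for Mcm2 (adjusted p = 0.811), -0.04 ± 0.355 for Mcm5 (adjusted p = 0.962) and -0.77 ± 0.409 for Mcm7 (adjusted p = 0.210). Tk1 was the 1 replication gene called. It read 7.59 and 6.73, 6.21 and 6.13, and 5.96 and 5.82 in WT and 5.07 and 5.64, 4.77 and 5.23, and 3.71 and 4.42 in KO. The difference was -1.81 ± 0.393 at 0 h (adjusted p = 0.0083) and, by 24 h, -1.82 ± 0.393 (adjusted p = 0.0040). Tk1 passed the filter through WT of run 1 alone, and was also called at both times with no filter. Rrm2 read 8.52 and 7.70, 7.26 and 6.35, and 6.56 and 5.72 against 5.54 and 6.90, 4.70 and 6.70, and 4.52 and 4.65 and had -1.89 ± 0.791 at 0 h (adjusted p = 0.114). Cdc6, which failed the filter in microglia, read 4.91 and 4.0, 3.63 and 3.55, and 3.27 and 3.13 against 3.55 and 3.41, 3.98 and 3.34, and 3.68 and 3.12.

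Tpx2 and Gins1 were higher in KO. Tpx2 read 6.79 and 5.95, 8.83 and 9.15, and 6.73 and 7.58 in WT and 10.44 and 8.14, 11.87 and 10.83, and 11.75 and 11.70 in KO. The KO arrays lay above the WT arrays at every time, by 2.92 ± 0.659 at 0 h (adjusted p = 0.0100; 8.0% of all genes called higher), 2.36 ± 0.659 at 6 h (adjusted p = 0.0404; 2.88%) and, after 24 h, by 4.57 ± 0.659 (adjusted p = 4.0e-04; 11.3%). The call at 6 h was lost with no filter, with the mean of the kept probe sets and with the arrays of run 1 alone. The dimmer probe set of Tpx2 gave 1.17 at 0 h. Gins1 read 6.60 and 6.27, 6.71 and 6.54, and 6.32 and 6.26 in WT and 7.71 and 6.81, 8.98 and 8.01, and 8.53 and 8.44 in KO, and was higher by 1.87 ± 0.305 at 6 h (adjusted p = 0.0039) and, after 24 h, by 2.19 ± 0.305 (adjusted p = 3.2e-04), and not called at 0 h (0.83 ± 0.305, adjusted p = 0.0751). At 24 h the calls of these genes held under every setting and without any 1 array.

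At 6 h the cyclin gene Ccnb2 was the only member lower in KO (-1.87 ± 0.493, adjusted p = 0.0341; 5.44% of all genes called lower). At 24 h 6 mitosis and 3 replication genes were lower (17.7% of all genes called lower; with no filter 8 of 39 members, against 10.7%), a background higher than at 0 h. Top2a (-1.86 ± 0.618, adjusted p = 0.0352), Ccnb2 (-1.57 ± 0.493, adjusted p = 0.0277), Cenpa (-1.46 ± 0.426, adjusted p = 0.0199), Birc5 (-1.43 ± 0.439, adjusted p = 0.0249), Cdk1 (-1.42 ± 0.348, adjusted p = 0.0083) and Aurkb (-1.16 ± 0.365, adjusted p = 0.0279) were the mitosis genes. Of the replication genes, Tk1, Rrm1 (-0.73 ± 0.258, adjusted p = 0.0467) and Pcna (-0.54 ± 0.144, adjusted p = 0.0130) were lower. Pcna read 12.36 and 12.40, 12.24 and 12.37, and 11.98 and 12.29 in WT and 12.33 and 12.20, 11.86 and 11.89, and 11.63 and 11.57 in KO, with both KO arrays below both WT arrays at each time.

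Among other genes of the process in untreated KO, 8 of 19 spindle genes were lower, with Anln at -1.64 ± 0.473 (adjusted p = 0.0304) and Cep55 at -1.55 ± 0.290 (adjusted p = 0.0040), and Pttg1 was higher by 1.95 ± 0.353 (adjusted p = 0.0032). Of 21 replication factors 5 were lower, with Prim1, a primase subunit, at -1.01 ± 0.263 (adjusted p = 0.0195), and Mcm10 was higher by 1.59 ± 0.419 (adjusted p = 0.0205). Of 7 CDK inhibitor genes Cdkn1a, p21, was higher (1.14 ± 0.294, adjusted p = 0.0188), at 11.88 and 12.25 in KO against 10.94 and 10.90 in WT, and Cdkn2c (-1.28 ± 0.317, adjusted p = 0.0153) and Cdkn2a (-1.01 ± 0.273, adjusted p = 0.0233) were lower. Cdkn2a was dim in both groups, at 3.95 and 4.2 in KO and 4.95 and 5.21 in WT, and passed the filter through run 3. Csf1, the growth factor of microglia, was higher by 3.17 ± 0.557 (adjusted p = 0.0028). At 24 h, where 11.3% of all genes were called higher and 17.7% lower, 4 of 21 other replication factors were higher, with Mcm10 at 1.81 ± 0.419 (adjusted p = 0.0061), and 4 lower, with Prim1 at -1.26 ± 0.263 (adjusted p = 0.0032). Of 12 E2F, pocket protein and MuvB genes 4 were higher, with E2f8 at 2.11 ± 0.388 (adjusted p = 0.0015), and 3 lower, and of 8 genes of G1 cyclins and their kinases 2 were higher, with Ccnd2 at 3.46 ± 0.650 (adjusted p = 0.0018), and 0 lower.

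These calls rest on few arrays. The 11 calls at 0 h became 1 without KO replicate 1, 2 without WT replicate 1 and 5 without WT replicate 2. The 3 at 6 h became 0 without KO replicate 1, 7 without KO replicate 2 and 1 without either WT array, and the 11 at 24 h became 2 and 5 without KO replicate 1 or 2 and 6 and 4 without WT replicate 1 or 2. The 7 oligodendrocyte markers averaged 5.78 and 7.46 on untreated KO replicates 1 and 2, and 6.86 and 5.96 on the WT replicates. Astrocyte markers averaged 4.68 and 5.66 against 5.56 and 5.19. The replicate with more of these markers also had the higher mitosis mean, 5.88 in KO replicate 2 and 6.91 in WT replicate 1. None of 6 oligodendrocyte genes and 1 of 7 astrocyte genes tested (Glul, lower in KO) was called. The part of these cells in the differences was not tested.

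No member was called between C61A microglia and WT of run 3 by limma, at 0 h (0.0126% of all genes called), 6 h (0.0126%) or 24 h (0.0251%). At an unadjusted p under 0.05 3, 9 and 1 members were higher and 0, 0 and 1 lower, and the median difference over the 30 tested was 0.63, 0.67 and 0.06. The largest, that of Bub1 at 6 h, was 1.94 ± 0.390 (adjusted p = 0.197), from 6.49 and 6.92 in C61A against 5.20 and 4.33 in WT. The 6.92 is of the C61A array that stood apart, and 6.49 and 5.20 are of the arrays with Ctsk at 9.45 and 8.11. Without the C61A array of 6 h and the untreated WT array that stood apart, 0 members were called at each time as well. Levels in WT of run 3 and in C61A follow in the order used above. Plk1 read 4.85 and 4.84, 5.51 and 4.82, and 4.74 and 4.75 in WT and 5.89 and 4.78, 5.71 and 5.34, and 4.79 and 4.86 in C61A. Cdc20 read 5.72 and 6.19, 6.35 and 5.76, and 4.09 and 4.90 against 7.84 and 6.15, 7.39 and 6.65, and 5.69 and 5.03 by the probe set used in BV-2. Birc5 read 5.22 and 5.33, 5.41 and 5.00, and 4.42 and 4.18 against 6.90 and 5.34, 6.33 and 6.53, and 4.78 and 4.11. In each, untreated C61A replicate 1 lay above replicate 2, which lay close to WT. Mki67 read 5.7 and 5.93, 6.05 and 5.52, and 5.29 and 4.42 against 7.66 and 5.67, 7.55 and 6.86, and 5.96 and 4.41. Top2a read 6.44 and 6.94, 7.19 and 6.69, and 6.35 and 5.74 against 8.36 and 6.57, 8.42 and 7.83, and 6.98 and 5.76. Cdk1 read 6.48 and 6.81, 6.97 and 6.42, and 6.44 and 6.30 against 7.72 and 6.59, 7.27 and 7.43, and 6.28 and 5.90. The lowest C61A array in Mki67, Top2a and Cdk1 was replicate 2 at 24 h.

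The replication genes of run 3 were read in the same order. Mcm2 read 7.15 and 7.55, 7.69 and 7.45, and 7.37 and 7.26 in WT and 7.81 and 7.4, 7.64 and 7.89, and 7.44 and 7.53 in C61A. Mcm3 read 6.32 and 6.86, 6.34 and 6.37, and 6.68 and 6.52 against 7.09 and 6.99, 6.53 and 7.22, and 6.34 and 6.04 by the probe set used in BV-2. Mcm4 read 7.01 and 7.59, 6.91 and 7.17, and 7.20 and 7.03 against 8.41 and 7.29, 7.63 and 7.71, and 7.23 and 6.70. By these probe sets, untreated C61A replicate 1 lay above both untreated WT arrays in these 3 genes. Mcm5 read 3.75 and 4.25, 3.85 and 3.57, and 3.66 and 3.60 against 5.12 and 3.91, 4.49 and 4.51, and 4.08 and 4.12. Mcm6 read 10.12 and 8.67, 9.34 and 9.68, and 8.97 and 8.97 against 8.92 and 8.82, 9.93 and 8.83, and 9.52 and 9.58. Mcm7 read 7.18 and 7.83, 7.12 and 7.37, and 6.82 and 6.49 against 8.73 and 7.35, 8.45 and 8.23, and 7.82 and 6.74. Mcm6 was highest in the untreated WT array that stood apart. Pcna read 11.58 and 11.38, 11.53 and 11.38, and 11.36 and 11.56 against 11.38 and 11.39, 11.26 and 11.38, and 10.97 and 11.20. Tk1 read 4.11 and 4.17, 4.45 and 3.93, and 3.85 and 3.77 against 5.53 and 4.09, 4.60 and 4.88, and 3.82 and 3.90. Rrm2 read 6.15 and 6.86, 6.78 and 6.01, and 5.69 and 5.03 against 8.76 and 6.63, 8.30 and 7.45, and 6.45 and 4.66. Tk1 and Rrm2 were higher in untreated C61A replicate 1 than in any WT array of run 3. Cdc6, which failed the filter, read 2.87 and 3.27, 3.10 and 3.13, and 3.29 and 3.04 against 4.33 and 3.18, 3.84 and 3.98, and 3.65 and 3.03. Astrocyte markers averaged 8.94 and 7.07 on the untreated C61A arrays and 6.98 and 8.67 on the WT arrays (replicate 1 and 2), so that replicates differed as much as genotypes.

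**Figure D5:**
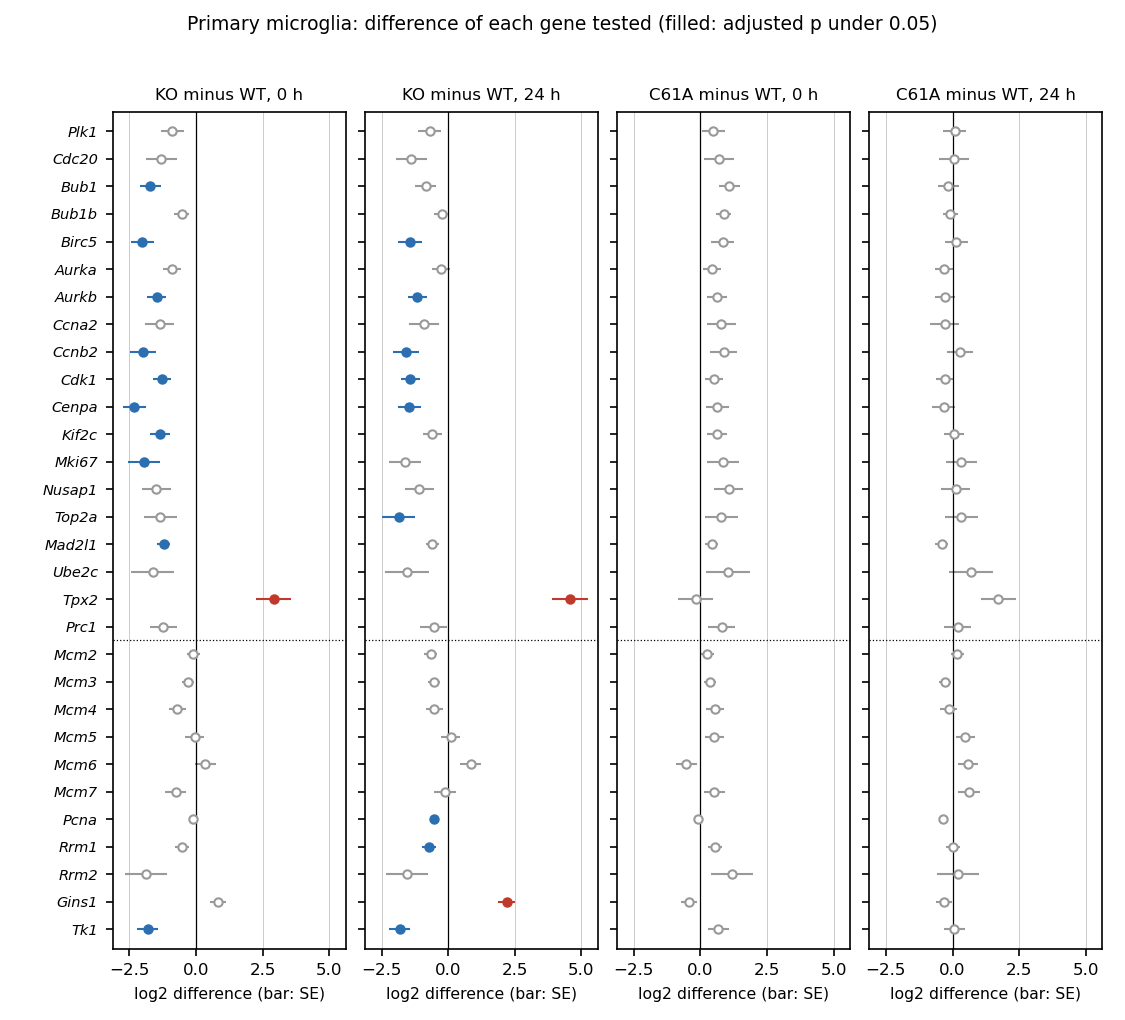
Log2 difference of each gene tested in microglia (rows, mitosis above the dotted line) for KO minus WT of run 1 and C61A minus WT of run 3 at 0 h and 24 h; bars are standard errors and filled points have an adjusted p under 0.05, blue lower and red higher. In KO the mitosis genes lie left of 0 with Tpx2 far to the right, and no point is filled in the C61A panels.

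The difference between the KO effect and the C61A effect was tested as well. It was called for 13 members at 0 h (12.2% of all genes), 12 of them lower in KO relative to C61A and Tpx2 higher, for 4 at 6 h (0.817%) and for Gins1 at 24 h (3.10%). Each effect has its own WT arrays, in different runs, and without the arrays that stood apart 6, 0 and 1 were called. At 0 h 5 and 20 were called without untreated C61A replicate 1 or 2, 2 without KO replicate 1, 4 and 6 without WT replicate 1 or 2 of run 1 and 3 without WT replicate 1 of run 3. At 6 h 8 were called without KO replicate 2 and 0 without C61A replicate 2, KO replicate 1 or any 1 WT array of that time.

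Few mitosis genes were called lower in WT microglia after 24 h of IFN-b than at 0 h. Cenpa read 7.85 and 7.81 at 0 h and 5.7 and 6.34 at 24 h in run 1, and 6.27 and 5.99 and then 5.02 and 4.91 in run 3, a mean log2 change of -1.49 ± 0.301 (adjusted p = 0.0167). Bub1 changed by -1.39 ± 0.276 (adjusted p = 0.0156) and Birc5 by -1.28 ± 0.310 (adjusted p = 0.0418), and no other member was called (0.565% of all genes called lower). The call of Birc5 was lost without the arrays that stood apart (-1.31, adjusted p = 0.0514), where 3 members were called, and with no filter (adjusted p = 0.0540), where Cenpa and Bub1 were. Both runs went the same way in these genes. WT arrays with 1 replicate number were treated as 1 culture across the times, and with that culture as a block 15 members (fixed) or 12 (random) were lower at 24 h in place of 3. At an unadjusted p under 0.05 18 of 30 were lower. The calls became 0 without untreated replicate 1 of run 1 or replicate 1 of run 3 at 24 h, and 1 without untreated replicate 2 of run 1 or of run 3, either array of run 1 at 24 h, or replicate 2 of run 3 at 24 h. Within run 1 Cenpa (-1.81 ± 0.426, adjusted p = 0.0405), Bub1 (-1.76 ± 0.390, adjusted p = 0.0314) and Mad2l1 (-1.05 ± 0.243, adjusted p = 0.0381) fell (0.565% of all genes), and 0 were called without any 1 of its 4 arrays, while with the block 13 or 12 were. Within run 3 limma called none (0.0754% of all genes; 3 members lower and 1 higher at an unadjusted p under 0.05).

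At 6 h Mad2l1, a checkpoint gene, fell in WT (-0.61 ± 0.172, adjusted p = 0.0292; 7.81% of all genes called lower) and Tpx2 rose (1.88 ± 0.466, adjusted p = 0.0168; 7.59% called higher). With the culture as a block, fixed or random, 6 members were called, and without the arrays that stood apart 7, of which 5 fell. Single arrays decided these calls: 0 were left without replicate 2 of run 1 at 6 h or untreated replicate 2 of run 3, 6 without its untreated replicate 1, and 1 without either untreated array of run 1 or either array of run 3 at 6 h. Within run 1 Mcm7 (-1.37 ± 0.409, adjusted p = 0.0251), Bub1, Mad2l1, Mcm4 and Mcm3 fell (14.1% of all genes called lower) and Tpx2 rose by 2.62 ± 0.659 (adjusted p = 0.0108; 10.8% called higher). These 6 calls became 1, 2, 3 and 1 without untreated replicate 1, untreated replicate 2, replicate 1 at 6 h and replicate 2 at 6 h, and 15 with the block, fixed or random. Within run 3 limma called none (0.0126% of all genes; 1 member higher at an unadjusted p under 0.05). The share of members called thus lay near the background at 6 h in run 1.

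In KO microglia Gins1 rose by 1.23 ± 0.305 at 6 h (adjusted p = 0.0251; 2.89% of all genes called higher) and no member fell by limma (5.57% of all genes called lower; 2 members at an unadjusted p under 0.05). At 24 h Gins1 was higher than at 0 h by 1.22 ± 0.305 (adjusted p = 0.0399; 1.73% called higher) and Pcna fell by 0.67 on the log2 scale (SE 0.144, adjusted p = 0.0247; 2.24% called lower). Gins1 was called at 6 h neither without untreated replicate 2 nor without replicate 1 at 6 h, where 0 members were called, and 2 members were called without either of the other arrays. At 24 h 0 were called without untreated replicate 2 or without either KO array at 24 h. Tpx2 had 2.06 ± 0.659 at 6 h (adjusted p = 0.0628) and 2.43 ± 0.659 after 24 h (adjusted p = 0.0534). Over the 30 members tested, 28 changes at 24 h were negative with a median of -0.75, and 11 were lower at an unadjusted p under 0.05. With the culture as a block, fixed or random, 13 or 11 members were called at 24 h, 11 or 9 of them lower, and 2 or 3 at 6 h. The response of KO was not called different from that of WT for any member by limma, at 6 h (1.14% of all genes; 3 members higher at an unadjusted p under 0.05) or 24 h (0.716%; 1 member higher).

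In C61A microglia limma called no member at 6 h (0.0503% of all genes; 1 member higher at an unadjusted p under 0.05), and 1 without the arrays that stood apart. At 24 h Bub1 (-2.27 ± 0.390, adjusted p = 0.0062), Cenpa (-2.13 ± 0.426, adjusted p = 0.0110), Birc5 (-1.68 ± 0.439, adjusted p = 0.0291), Mad2l1 (-0.90 ± 0.243, adjusted p = 0.0324) and Rrm1 (-0.90 ± 0.258, adjusted p = 0.0429) fell (3.63% of all genes called lower), and Tpx2 rose by 2.86 ± 0.659 (adjusted p = 0.0187; 5.46% called higher). Tpx2 read 7.10 and 5.74, 7.78 and 7.34, and 7.27 and 7.52 in WT of run 3 and 6.64 and 5.84, 8.35 and 7.06, and 8.91 and 9.29 in C61A, and Gins1 6.89 and 6.54, 7.42 and 7.23, and 7.41 and 7.37 against 6.4 and 6.15, 6.75 and 6.79, and 6.81 and 7.35. Both C61A arrays at 24 h held more Tpx2 than any WT array of run 3. The 6 calls became 1 and 12 without untreated replicate 1 or 2, and 2 and 0 without replicate 1 or 2 at 24 h. The call of Tpx2 was lost with the mean of the kept probe sets and without any 1 of these 4 arrays. With the culture as a block, fixed or random, 18 or 19 members were called at 24 h, 16 or 17 of them lower. The response of C61A was not called different from that of WT in any member by limma, at 6 h (0% of all genes; 0 members at an unadjusted p under 0.05) or 24 h (0%; 3 members lower).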

How the data were processed

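RNA of 36 samples was read on 36 one-colour Affymetrix arrays, labelled from the 3′ end after column purification, per the labels' protocols. The authors deposited 1 value per probe set, from 1.664 to 14.031, taken as log2 intensity from that range. Log base, normalization and probe summary were not given in the sources used here. Per the submitters' processing notes, affy was used. Array medians lay between 5.594 and 5.827, and the highest correlation of any 2 arrays was 0.995. Only 2 arrays per group limit the precision. Of 22690 probe sets, 20393 were paired with 1 gene, 691 with several and 1606 had no entry in GEO's platform table, whose symbols can be old.

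Group means were fitted with limma 3.58.1 (R 4.3.3; lmFit and eBayes), apart for 24 microglia and 12 BV-2 arrays, which left 12 and 6 residual degrees of freedom, and over all 36 arrays (18) for BV-2 against WT. Each run's WT served its own genotype, and WT responses average both runs. Probe sets above the array median on at least 2 arrays were kept, the brightest kept probe set stood for its gene, and p-values were adjusted by Benjamini-Hochberg over 7960, 7163 and 8260 genes, with 0.05 as the threshold. Cdc20 and Mcm3 were read by different probe sets in microglia and BV-2. The fits were tested on simulated data. Figures were drawn with matplotlib 3.10.9 (Python 3.11.15).

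Arrays of WT with 1 replicate number deviated together over time (correlation of deviations 0.434 to 0.672 in run 1, 0.296 to 0.520 in run 3), and the culture was therefore tried as a block. The members and lists were chosen with earlier results of these data known. The genes given in full were those called with the largest change, up to 5 per list, direction and comparison, and Plk1, Cdc20, Birc5, Mki67, Top2a, Cdk1, Mcm2 to Mcm7, Pcna, Rrm2, Cdc6, Tyms and Tk1 whether called or not, with up to 4 genes per further list. Promoter windows came from RefSeq (GRCm38.p6). Alternatives comprised the filter, normalization, probe set rule, run terms, blocks, and leaving out arrays.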

Additional observations from a re-analysis of the deposited data

Results flagged for a closer look

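The effect of KO against WT of run 1 and that of C61A against WT of run 3 differed in 18 tests of the difference itself (KO effect minus C61A effect, log2, limma with Benjamini-Hochberg adjustment). At 0 h 12 members were lower in KO relative to C61A. The checkpoint genes Bub1 (-2.80 ± 0.551, adjusted p = 0.0075), Bub1b (-1.40 ± 0.399, adjusted p = 0.0358) and Mad2l1 (-1.63 ± 0.344, adjusted p = 0.0096) were among them, as were the passenger complex genes Birc5 (-2.85 ± 0.621, adjusted p = 0.0113) and Aurkb (-2.10 ± 0.516, adjusted p = 0.0187). Cdk1 (-1.79 ± 0.493, adjusted p = 0.0303), its cyclin gene Ccnb2 (-2.86 ± 0.697, adjusted p = 0.0181) and the centromere gene Cenpa (-2.95 ± 0.603, adjusted p = 0.0083) were lower too. The others were Kif2c (-2.0 ± 0.529, adjusted p = 0.0252), Nusap1 (-2.56 ± 0.770, adjusted p = 0.0421), Mki67 (-2.81 ± 0.84, adjusted p = 0.0413) and the replication gene Tk1 (-2.47 ± 0.556, adjusted p = 0.0131). Tpx2 was higher (3.10 ± 0.932, adjusted p = 0.0421). With no filter 11 members were called at 0 h, and the calls of Tpx2, Mki67 and Nusap1 were lost. Aurkb, which passed the filter through untreated WT of run 1 alone, and Tk1, which passed through WT of run 1 alone, were called there too.

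At 6 h Bub1 (-2.54 ± 0.551, adjusted p = 0.0481), Aurka (-2.16 ± 0.472, adjusted p = 0.0495) and Ccnb2 (-3.22 ± 0.697, adjusted p = 0.0481) were lower and Gins1 higher (2.43 ± 0.431, adjusted p = 0.0391). At 24 h Gins1 was higher (2.5 ± 0.431, adjusted p = 0.0102). Genotype and run cannot be told apart in these differences, except that each genotype was set against WT of its own run.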

How the results depend on the processing

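The counts below are members called, with the count as reported in parentheses where it moved. No called value changed sign in the 11 comparisons where each called gene was followed (BV-2 minus WT, KO minus WT, Usp18 minus control siRNA, and the responses of WT, KO, C61A and Usp18 siRNA), and the 37 calls of BV-2 against WT were kept in every setting. With 2 arrays a group, leaving out 1 array (the lone array is then assumed to vary like other groups) gave these ranges: BV-2 minus WT 37 to 37; WT run 1 minus run 3 9 to 21 at 0 h, 4 to 8 at 6 h and 4 to 10 at 24 h; the response with Usp18 siRNA 0 to 5 at 6 h and 0 to 32 at 24 h, and with control siRNA 0 to 0; Usp18 minus control siRNA 0 to 0, 0 to 3 and 0 to 31; their responses' difference 0 to 0 and 0 to 3. KO minus WT ranged over 1 to 15, 0 to 7 and 2 to 6, the KO response over 0 to 2 and 0 to 3, the C61A response over 0 to 0 and 0 to 12, the WT response over 0 to 6 and 0 to 4, and within run 1 over 1 to 3 and 0 to 0. C61A minus WT, the run 3 response and the response differences of KO and C61A from WT ranged over 0 to 0. The KO minus C61A effect ranged over 2 to 20, 0 to 8 and 1 to 1.

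With a replicate block for the culture, fixed and random in turn, the calls were 15 and 12 for the WT response at 24 h (3), 6 and 6 at 6 h (2), 13 and 12 for run 1 at 24 h (3), 15 and 15 at 6 h (6), 13 and 11 for the KO response at 24 h (2), 2 and 3 at 6 h (1), 18 and 19 for the C61A response at 24 h (6), 6 and 8 for Usp18 siRNA at 6 h (0), and 1 and 1 for the KO minus WT response at 24 h (0). The fixed block gave 1 for run 3 at 24 h (0), and the random block 1 for control siRNA at 24 h (0) and 1 for the KO minus C61A effect at 6 h (4). Beyond WT, same-numbered arrays deviated together over time too (correlations from 0.310 to 0.811), while between KO and WT they had -0.112 to -0.086, between C61A and WT -0.460 to -0.044 and between siRNAs 0.322 to 0.506.

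Without the arrays that stood apart, the calls were 13 for run 1 minus run 3 at 0 h (23), 7 for the WT response at 6 h (2), 25 for Usp18 minus control siRNA at 24 h (15), 1 for the C61A response at 6 h (0), 2 for the KO response at 6 h (1), and 6 and 0 for the KO minus C61A effect at 0 h (13) and 6 h (4). With no run term KO minus WT had 1 at 0 h (11) and 2 at 24 h (11), and the WT response 0 at 6 h and 0 at 24 h. An additive run term gave 7 for KO minus WT at 6 h (3), 1 for C61A minus WT at 6 h (0) and 1 for the WT response at 6 h. Arrays of the own run alone gave 3 for the C61A response at 24 h, 1 for the KO response at 24 h and 5 for run 1 at 24 h. No filter gave 6 for Usp18 minus control siRNA at 24 h, where more genes are tested, and 1 for the KO response at 24 h and 1 for the KO minus C61A effect at 6 h. That effect also had 0 with arrays centred, 1 with an intensity trend, 1 with quantile normalization and 1 with a stricter filter. Centring gave 0 for the KO response at 24 h and 1 for the WT response at 6 h, quantile normalization 1 for both, and the mean of the kept probe sets 4 for the latter. The causes were not tested.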
